A study of Mus musculus with 107 samples.

Results

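From a mouse RiboTag RNA-seq series of 27179 genes, 10 were followed, chosen by symbol for their roles in DNA methylation and in the Lin28/let-7 axis and matched to Entrez identifiers. They are the maintenance methyltransferase Dnmt1 (Entrez 13433), the de novo methyltransferases Dnmt3a (13435) and Dnmt3b (13436), their catalytically inactive partner Dnmt3l (54427), the 5-methylcytosine dioxygenases Tet1 (52463), Tet2 (214133) and Tet3 (194388), the RNA-binding proteins Lin28a (83557) and Lin28b (380669), and the let-7 target Hmga2 (15364). All 10 were present in every count table. Exit from the embryonic stem cell (ESC) state removed Dnmt3b, Dnmt3l and Lin28a almost completely and raised Tet3, whereas in neural progenitor cells (NPC) at passage 15 of the first derivation Dnmt1 and Hmga2 overlapped ESC, though both were lower in another derivation. Dnmt1 and Hmga2 then fell on differentiation and after grafting. At 20% serum Dnmt1 was lower, and Hmga2 was higher from a very low level. On differentiation Hmga2 passed the low-count filter only through NPC, and at 20% serum only through the serum group, so those Hmga2 calls are descriptions.

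Cytosine methylation at CpG dinucleotides is written on unmethylated DNA by Dnmt3a and Dnmt3b, helped by Dnmt3l, and is copied after replication by Dnmt1, which Uhrf1 brings to hemimethylated sites. Tet enzymes oxidise 5-methylcytosine, and the oxidised bases are lost by dilution or excised by Tdg. Lin28a and Lin28b bind let-7 precursors and block their maturation, and mature let-7 represses mRNAs that carry matches to its seed, among them Lin28 itself and Hmga2, a chromatin protein known from fetal neural stem cells.

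The 107 libraries of 23 groups hold mRNA pulled down with HA-tagged ribosomes. The tagged cells were 1 female ESC line in which Cre had activated the Rpl22-HA allele, so all cultured groups are descended from 1 line. All samples carried the strain label C57BL/6 and the genotype label RiboTag +, controls included. The cultured groups were ESC (n = 4), kept in serum and LIF, and NPC of a first derivation at passages 5, 15 and 30 (NPC P5, P15 and P30, n = 4 each). NPC of derivations D2 (NPC P15 D2, n = 6) and D3 (NPC P15 D3, n = 4) were also taken at passage 15. NPC were differentiated for 4 days with the mitogens EGF and FGF cut from 100 to 1 ng/ml (SPONT), alone or with 100 ng/ml CNTF, 100 ng/ml IGF-1, fetal bovine serum (FBS) at 1, 5, 10 or 20%, or CNTF with 5% FBS (n = 4 each). NPC were also passed through glass pipettes in media, in the hydrogel DCH, or in DCH after 4 h of dwell (n = 5 each).

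In vivo groups came from female and male mice between 8 weeks and 4 months of age. Host astrocyte mRNA was taken from spinal cord of mice in which the 73.12 Gfap promoter drives Cre and thereby the tag, either healthy (Host, n = 9) or 14 days after crush spinal cord injury (Host SCI, n = 5). Cre under this promoter also tags any other cell in which it was active. NPC grafts were injected into young adult C57BL/6 cord without immunosuppression, 2 days after crush where there was an injury, and recovered at 5 d (Graft SCI 5 d) or at 14 d from injured (Graft SCI 14 d), uninjured (Graft uninjured 14 d) or doubly crushed cord (Graft dSCI 14 d, n = 5 each). The labels do not name the NPC stock used for differentiation, pipetting or grafting. NPC P15 of the first derivation therefore served as the reference and NPC P15 D3 as an alternative. Neither is labelled as passed through pipettes, and the pipetted groups were not used as a reference for grafts.

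Library totals ran from 30473157 to 147764968 for 96 paired libraries, in which both mates were counted, and from 12286240 to 18085106 for the 11 single-read libraries of NPC P15 D2 and Graft SCI 5 d. Read type therefore cannot be told apart from derivation or from recovery day in any comparison with those groups. The 5 pluripotency markers summed to 2349.6 to 2395 CPM in ESC and to at most 21.6 CPM elsewhere, and the 5 progenitor markers to 2603 to 2873 CPM in NPC P15. The 6 astrocyte markers summed to 33373 to 40424 CPM in Host and 26200.5 to 40882 CPM in Host SCI, against 745 to 777 CPM in NPC P15. Grafts also held markers of neurons and of cells outside the neural lineage. The 5 neuronal markers summed to 32.9 to 38.99 CPM in NPC P15 and 246 to 341 in Host. In injured cord they summed to 113 to 924 CPM in Graft SCI 5 d and 515 to 704 in Graft SCI 14 d. The sums were 1317 to 6208 CPM in Graft uninjured 14 d and 281 to 1336 in Graft dSCI 14 d. The part of these neuronal sums in the graft differences was not tested. The 7 myeloid markers summed to 0.5 to 1.17 CPM in NPC P15, 13.2 to 24.1 in Host, 149 to 922 in Host SCI and 144 to 6193 over the 20 graft libraries, with no marker of the list at 0 in any graft group. Nothing in the labels says that cultured replicates came from separate cultures, so p-values measure the spread between these samples, which may be technical.

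Of the 10 members, 4 carry matches to the let-7 seed in their 3′ untranslated region (UTR), and they are shown because this match is the textbook link between Lin28, let-7 and Hmga2. The 11 mature mouse miRNAs of 13 loci in RefSeq (GRCm38.p6) that share the let-7 seed, bases 2 to 8 in capitals, include the following.
mmu-let-7a-5p: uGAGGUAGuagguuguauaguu
mmu-let-7e-5p: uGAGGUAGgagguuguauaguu
mmu-let-7g-5p: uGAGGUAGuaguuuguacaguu
mmu-miR-98-5p: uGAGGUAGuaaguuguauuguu

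The reverse complement of that seed, CTACCTC, was searched on the transcript strand in the longest annotated 3′ UTR of each gene with one of at least 100 bases (GENCODE M21, GRCm38). Of 19830 genes, 9.44% held at least 1 match. Hmga2 held 4 matches in 3014 bases and Lin28b held 4 in 4445 bases, and 0.0605% of genes held as many or more. Lin28a held 2 matches in 2775 bases, a count reached by 1.13% of genes, and Tet3 held 1 in 5669 bases. The other 6 members held none, which says only that these letters are not in the UTR searched. One match per gene is printed with its match in capitals, at chr10:120364214-120364242 (Hmga2), chr10:45381012-45381040 (Lin28b), chr4:134005179-134005207 (Lin28a) and chr6:83365319-83365347 (Tet3), all on the minus strand of GRCm38.
Hmga2: acattcaatttCTACCTCagcatcagttg
Lin28b: gggcgggaagtCTACCTCatgcaagcaca
Lin28a: agcctgttgaaCTACCTCatttttgccga
Tet3: acatgtataacCTACCTCaaatctgtcac

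Promoters (250 bases before to 50 after the start, RefSeq GRCm38.p6) are shown for the 3 members whose levels separated ESC from NPC most plainly and whose start lay in 1 listed window, with CG dinucleotides, the substrate of these enzymes, in capitals. Dnmt3b (chr2:153649199-153649498, plus strand) held 30 CG dinucleotides, Tet3 (chr6:83441629-83441928, minus strand) 22 and Lin28a (chr4:134018767-134019066, minus strand) 10. At least as many were held by 11.7%, 23.1% and 43.5% of the 32851 promoters listed, whose median was 7. Dnmt3l held 6, 4 and 3 in its 3 listed promoters, and Tet2 held 57, a count reached by 0.152% of promoters. Methylation itself was not measured in these samples.
Dnmt3b: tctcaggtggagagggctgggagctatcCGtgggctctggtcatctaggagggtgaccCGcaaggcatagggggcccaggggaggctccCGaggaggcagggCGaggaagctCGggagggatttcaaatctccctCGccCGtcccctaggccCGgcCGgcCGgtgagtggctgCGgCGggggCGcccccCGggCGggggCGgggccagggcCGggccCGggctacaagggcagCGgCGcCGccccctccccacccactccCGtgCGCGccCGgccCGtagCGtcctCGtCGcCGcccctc
Lin28a: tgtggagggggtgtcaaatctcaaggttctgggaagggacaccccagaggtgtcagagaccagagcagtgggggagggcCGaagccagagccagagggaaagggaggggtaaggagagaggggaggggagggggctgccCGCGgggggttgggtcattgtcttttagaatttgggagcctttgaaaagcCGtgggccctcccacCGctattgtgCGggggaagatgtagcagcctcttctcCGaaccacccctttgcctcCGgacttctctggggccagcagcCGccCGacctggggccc
Tet3: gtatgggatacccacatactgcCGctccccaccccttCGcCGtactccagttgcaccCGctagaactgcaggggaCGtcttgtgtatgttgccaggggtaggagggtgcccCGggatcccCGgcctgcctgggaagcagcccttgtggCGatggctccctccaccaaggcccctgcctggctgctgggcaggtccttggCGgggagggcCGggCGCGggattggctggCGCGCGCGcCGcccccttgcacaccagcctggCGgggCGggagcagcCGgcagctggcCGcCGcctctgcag

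Levels between genes were compared as FPKM, here CPM per kilobase of union exon. In ESC the order of mean FPKM was Dnmt3l (376 ± 15.1 SD, n = 4), Dnmt3b (108 ± 2.77), Lin28a (71.4 ± 1.87), Dnmt1 (46.4 ± 4.66), Dnmt3a (30.0 ± 1.76), Tet1 (8.34 ± 1.54), Tet2 (4.07 ± 0.478), Hmga2 (3.39 ± 0.646), Lin28b (0.857 ± 0.203) and Tet3 (0.426 ± 0.0476). In NPC P15 the order was headed by Dnmt1 (47.8 ± 1.58 FPKM), followed by Tet3 (13.2 ± 1.23), Dnmt3a (11.5 ± 0.395), Hmga2 (3.48 ± 0.243), Tet1 (1.6 ± 0.198), Tet2 (1.33 ± 0.209) and Dnmt3b (0.882 ± 0.332). Tet3 thus went from the lowest of the 10 in ESC to the second in NPC P15. In SPONT, Dnmt1 (11.8 ± 1.08 FPKM), Dnmt3a (6.84 ± 0.912) and Tet3 (3.39 ± 0.566) headed the list. All values that follow for single genes are CPM, the counts scaled to a library total of 1e6, and differences are log2FC from edgeR.

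**Figure D1:**
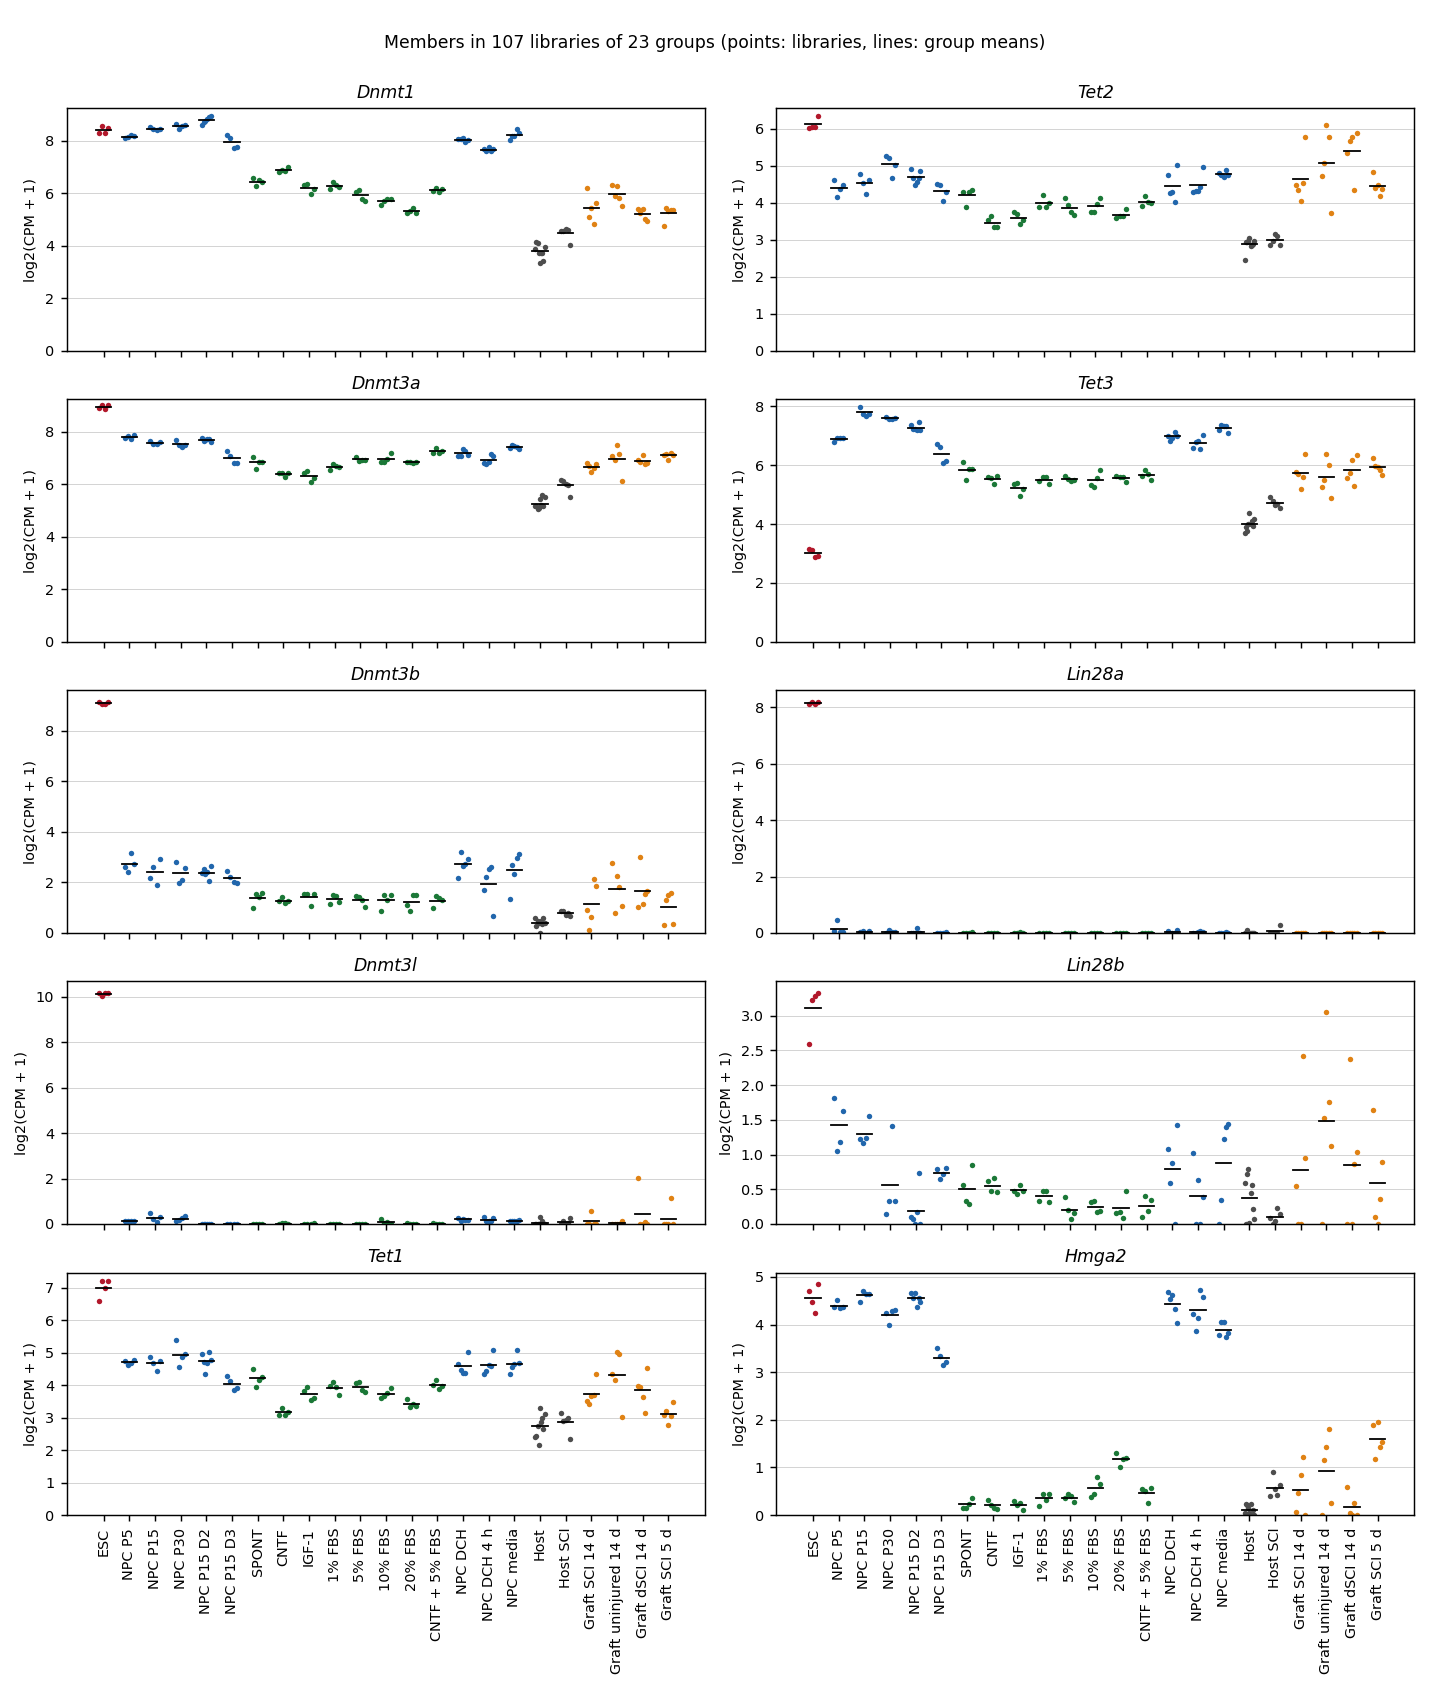
Each panel plots 1 member as log2(CPM + 1) on the vertical axis over the 23 groups on the horizontal axis, with a point per library and a line at the group mean. Dnmt3l and Lin28a stand high in ESC and near 0 elsewhere, Tet3 is lowest in ESC, and Dnmt1 and Hmga2 step down between the NPC groups and the differentiated, grafted and host groups.

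Between NPC P15 and ESC 8 of the 10 members differed at an adjusted p below 0.01, 1 higher and 7 lower, where 67.2% of all tested genes were called (32.2% higher and 34.9% lower). Dnmt3l and Lin28a passed the low-count filter only through ESC in each of these comparisons, as did Lin28b in those with NPC P30 and NPC P15 D2, so the counts of members called are a description. Against NPC P5, 9 were called (Hmga2 was not) with 67.1% of genes called, against NPC P30 8 with 67.9%, against NPC P15 D2 8 with 80.6% and against NPC P15 D3 all 10 with 69.5%. These comparisons share the 4 ESC libraries. None of the calls for a member against ESC was lost when any 1 library was left out.

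The de novo enzymes Dnmt3b and Dnmt3a and their partner Dnmt3l fell on leaving the ESC state. Dnmt3b measured 558, 539, 537 and 566 CPM in the 4 ESC libraries and 3.57, 5.18, 2.73 and 6.54 CPM in NPC P15 (log2FC -7.05, SE 0.22, adjusted p = 1.3e-10). No NPC library of any passage or derivation came above 8.02 CPM of Dnmt3b. Dnmt3a was retained at a lower level, at 476, 525, 470.2 and 523 CPM in ESC and 199, 186, 185 and 194.4 CPM in NPC P15 (log2FC -1.47, SE 0.052, adjusted p = 4.1e-10), with no overlap between the groups. Dnmt3l, which has no methyltransferase activity of its own and stimulates Dnmt3a and Dnmt3b, measured 1142, 1057, 1150.1 and 1149 CPM in ESC. In counts it fell to 8, 7, 8 and 8 in NPC P5, 31, 12, 3 and 10 in NPC P15 and 14, 4, 13 and 18 in NPC P30. All libraries of NPC P15 D2, NPC P15 D3, SPONT, 1% FBS and 5% FBS had 0 counts of Dnmt3l. With a floor of 3 counts over the group, Dnmt3l was at least 34774-fold lower in NPC P15 D2 than in ESC. The same floor gave 93442-fold in NPC P15 D3, whose paired libraries counted both mates. There 3 counts stand for fewer than 3 fragments, so 93442 overstates the bound and cannot be set beside that of single-read libraries. Such floors cover counting error only.

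Dnmt1, the copying enzyme, did not follow. It measured 312, 384, 316 and 357 CPM in ESC and 368, 352, 339.2 and 352 CPM in NPC P15 (log2FC -0.04, SE 0.067, adjusted p = 0.57), and the groups overlapped. It was lower in NPC P5 (285 ± 8.89 CPM, log2FC -0.39, SE 0.065, adjusted p = 2.0e-04) and in NPC P15 D3 (251 ± 43.6 CPM, log2FC -0.55, SE 0.11, adjusted p = 0.0010) than in ESC (342 ± 34.4 CPM). Uhrf1, its partner at hemimethylated DNA, fell from 672 ± 38.4 to 314 ± 6.85 CPM (log2FC -1.19, SE 0.045, adjusted p = 8.3e-10), and Hells, a chromatin remodeller needed for methylation of repeats, from 428 ± 19.7 to 82.1 ± 6.27 CPM (log2FC -2.47, SE 0.062, adjusted p = 2.9e-11). Of the 8 genes listed for maintenance and targeting, 7 were lower and 1 higher in NPC P15, where 34.9% of all tested genes were lower and 32.2% higher.

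The 3 Tet genes moved in opposite directions. Tet1 measured 95.9, 147, 127.04 and 146 CPM in ESC and 28.1, 24.6, 20.7 and 25.5 CPM in NPC P15 (log2FC -2.47, SE 0.14, adjusted p = 2.7e-08). Tet2 measured 63.9, 65.1, 65.0 and 80.7 CPM in ESC and 26.3, 22.3, 17.8 and 23.2 CPM in NPC P15 (log2FC -1.70, SE 0.13, adjusted p = 3.0e-07). Tet3, the family member best known from the oocyte and from neurons, measured 7.81, 7.76, 6.29 and 6.56 CPM in ESC and 251, 213, 204 and 214 CPM in NPC P15 (log2FC 4.87, SE 0.11, adjusted p = 1.1e-11). In each case the 2 groups did not overlap, and the direction was the same in all 5 NPC groups, with Tet3 log2FC between 3.46 (NPC P15 D3) and 4.87 (NPC P15). Tdg, the glycosylase that excises oxidised bases, rose from 33.96 ± 2.95 to 58.1 ± 6.24 CPM (log2FC 0.69, SE 0.10, adjusted p = 7.3e-05).

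Lin28a measured 278, 292, 279.9 and 292 CPM in ESC. Its counts were 2, 4, 0 and 2 in NPC P15 and 0, 2, 2 and 1 in NPC P30, a mean of 0.0272 CPM in NPC P30 against 286 CPM in ESC. The highest NPC library for Lin28a was NPC P5 replicate 2 with 32 counts (0.362 CPM). Lin28b, the paralog, was low already in ESC, at 5.05, 8.31, 8.71 and 9.02 CPM, and measured 1.33, 1.24, 1.35 and 1.93 CPM in NPC P15 (log2FC -2.50, SE 0.31, adjusted p = 2.1e-05). Hmga2 overlapped between the groups, at 24.9, 21.1, 17.8 and 27.9 CPM in ESC and 21.2, 25.0, 24.2 and 23.8 CPM in NPC P15 (log2FC -0.05, SE 0.15, adjusted p = 0.76), but was lower in NPC P15 D3 than in ESC (8.94 ± 1.1 CPM, log2FC -1.46, SE 0.16, adjusted p = 7.5e-06).

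Of 9 other genes listed for the Lin28/let-7 axis, 8 were lower and 1 higher in NPC P15 than in ESC. Of all tested genes 34.9% were lower and 32.2% higher. Igf2bp1, an mRNA-binding protein repressed by let-7, measured 992 ± 101.2 CPM in ESC and 0.49 ± 0.571 CPM in NPC P15. Igf2bp1 passed the low-count filter only through ESC, so the counts of genes that include it are descriptions. Trim71, a let-7 target first found in worms, went from 164 ± 19.003 to 1.84 ± 0.502 CPM (log2FC -6.54, SE 0.18, adjusted p = 6.1e-11). Hmga1, the paralog of Hmga2, went from 685 ± 20.4 to 37.8 ± 3.53 CPM (log2FC -4.27, SE 0.069, adjusted p = 1.3e-12), and Igf2bp3 from 54.2 ± 5.69 to 6.24 ± 1.54 CPM (log2FC -3.21, SE 0.18, adjusted p = 1.9e-08). Over the whole list of 46 further genes of the pathways, 14 were higher and 27 lower.

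Over passages of the first derivation Tet3 and Dnmt1 were higher at P15 than at P5. Tet3 measured 108, 119.3, 121 and 119.6 CPM in NPC P5, 251, 213, 204 and 214 CPM in NPC P15 and 198, 190.0, 189 and 191 CPM in NPC P30, so NPC P5 lay below both later passages. Tet3 rose from P5 to P15 (log2FC 0.93, SE 0.06, adjusted p = 9.5e-11) and was lower at P30 than at P15 (log2FC -0.23, SE 0.059, adjusted p = 0.0031). The Tet3 call was lost without any 1 of NPC P15 replicate 1 or NPC P30 replicates 3 and 4 (adjusted p from 0.0101 to 0.017). Without NPC P15 replicate 1, the highest of its group, that log2FC was -0.16. Dnmt1 rose from 276, 280.0, 296 and 288 CPM in NPC P5 to 368, 352, 339.2 and 352 CPM in NPC P15 (log2FC 0.33, SE 0.039, adjusted p = 7.0e-07), and Dnmt3a fell slightly (log2FC -0.21, SE 0.045, adjusted p = 7.9e-04). These were the 3 members called in NPC P15 against NPC P5, where 35.5% of genes were called.

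In NPC P30 against NPC P15, 3 members were called, where 30% of genes were called, and each call was lost without single libraries. Tet2 measured 26.3, 22.3, 17.8 and 23.2 CPM in NPC P15 and 37.6, 36.1, 24.2 and 31.4 CPM in NPC P30 (log2FC 0.49, SE 0.14, adjusted p = 0.0079). The Tet2 call was lost without any 1 of NPC P15 replicates 2, 3 and 4 or NPC P30 replicates 1, 2 and 4 (adjusted p from 0.017 to 0.042). Hmga2 measured 18.1, 15.0, 18.5 and 18.8 CPM in NPC P30, all below the 4 NPC P15 libraries (log2FC -0.45, SE 0.12, adjusted p = 0.0057). The Hmga2 call was lost without any 1 of NPC P15 replicates 2, 3 and 4 or NPC P30 replicates 1 and 2 (adjusted p from 0.011 to 0.018). Between NPC P30 and NPC P5, 3 members were higher (Dnmt1, Tet2 and Tet3) and 1 lower (Dnmt3a), with 17.5% and 18.1% of all genes called in those directions and 35.5% in all. Igf2bp3 fell over the same interval (log2FC -3.68, SE 0.17, adjusted p = 9.6e-13), and of the 46 further genes 5 rose and 19 fell. Lin28b was at 0.108, 0.263, 1.67 and 0.258 CPM in NPC P30, with replicate 3 far above the other libraries. It was not called against NPC P5 (log2FC -1.60, adjusted p = 0.11), whereas without that library it was (-3.10, adjusted p = 0.0038). Lin28b passed the low-count filter in this comparison only through NPC P5, so the call without replicate 3 is a description.

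Derivations of NPC differed at these genes too. In NPC P15 D3 against NPC P15, 5 members were called, with 48% of genes called. Tet3 measured 105.3, 96.0, 65.5 and 69.0 CPM in NPC P15 D3 (log2FC -1.35, SE 0.14, adjusted p = 3.2e-06) and Hmga2 10.4, 9.1, 7.94 and 8.31 CPM (log2FC -1.35, SE 0.11, adjusted p = 6.7e-07), both below all 4 NPC P15 libraries. Dnmt1 (-0.44), Dnmt3a (-0.54) and Tet1 (-0.62) were the other 3, also lower on the log2FC scale. In NPC P15 D2 against NPC P15, Dnmt1 (log2FC 0.34, SE 0.061, adjusted p = 6.1e-05), Tet3 (log2FC -0.52, SE 0.061, adjusted p = 3.8e-07) and Lin28b (log2FC -3.31, SE 0.67, adjusted p = 2.4e-04) were called, where 55.9% of genes were. Lin28b passed the low-count filter only through NPC P15, so the Lin28b call is a description. Its counts in the 6 NPC P15 D2 libraries were 1, 1, 0, 2, 9 and 0, against 1.33, 1.24, 1.35 and 1.93 CPM in NPC P15. The summed cell cycle markers were 1917 to 1999 CPM in NPC P15, 2787 to 3321 in NPC P15 D2 and 2468 to 2545 in NPC P15 D3. Oligodendroglial markers summed to 7267 to 7484, 2530 to 2881 and 1963 to 2365 CPM in the same groups. Astrocyte markers summed to 745 to 777, 1809 to 2107 and 723 to 975 CPM. The part of any of these sums in the differences was not tested.

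After 4 days without full mitogen, SPONT had lower Dnmt1 and Hmga2 than NPC P15. In all, 5 members were lower and none higher in SPONT than in NPC P15, where 27.4% of all genes were lower, 29.8% higher and 57.2% called in all. Hmga2, 1 of the 5, passed the low-count filter only through NPC P15, so this count and the Hmga2 call are descriptions. Hmga2 measured 21.2, 25.0, 24.2 and 23.8 CPM in NPC P15 and 0.104, 0.113, 0.177 and 0.29 CPM in SPONT (log2FC -6.96, SE 0.27, adjusted p = 4.0e-09). Dnmt1 measured 94.3, 76.3, 91.2 and 85.3 CPM in SPONT, far below the lowest NPC P15 library at 339.2 CPM (log2FC -1.90, SE 0.077, adjusted p = 5.0e-09). The groups did not overlap for either gene. Tet3 measured 67.1, 44.1, 57.5 and 57.5 CPM in SPONT (log2FC -1.84, SE 0.12, adjusted p = 1.8e-07) and Dnmt3a 132, 94.7, 113 and 116 CPM (log2FC -0.62, SE 0.09, adjusted p = 1.0e-04). Dnmt3b was already low in NPC P15 and measured 0.99, 1.9, 1.68 and 2.02 CPM in SPONT (log2FC -1.31, SE 0.35, adjusted p = 0.0060). The Dnmt3b call was lost without any 1 of NPC P15 replicates 2 and 4 or SPONT replicates 1, 3 and 4 (adjusted p from 0.012 to 0.020).

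With NPC P15 D3 as the reference, 3 of the 5 calls in SPONT held (Dnmt1, Dnmt3b and Hmga2), and the log2FC of Tet3 was -0.51 and of Dnmt3a -0.10, neither called. Tet1 (log2FC -0.35, adjusted p = 0.048), Tet2 (log2FC -0.23, adjusted p = 0.18) and Lin28b (log2FC -1.61, adjusted p = 0.017) were not called in SPONT. Cell cycle markers summed to 373 to 430.3 CPM in SPONT against 1917 to 1999 CPM in NPC P15, and their part in the fall of Dnmt1 and Hmga2 was not tested. Uhrf1 fell to 59.1 ± 3.34 CPM (log2FC -2.28, SE 0.069, adjusted p = 5.8e-10) and Hells to 5.94 ± 1.73 CPM (log2FC -3.66, SE 0.19, adjusted p = 2.8e-08). All 7 genes of the let-7 processing list were lower in SPONT than in NPC P15, where 27.4% of all genes were lower and 29.8% higher. The list holds the nucleases Drosha and Dicer1 and the uridylyltransferases Tut4 and Tut7, which act on let-7 precursors. Of these 7 genes, 6 were also lower and 0 higher in undifferentiated NPC P15 D3 than in NPC P15, where 24.5% of all genes were lower. SPONT was not compared with NPC P15 D3 for these genes, so the part of derivation was not tested. Of the 46 further genes 9 were higher and 23 lower.

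**Figure D2:**
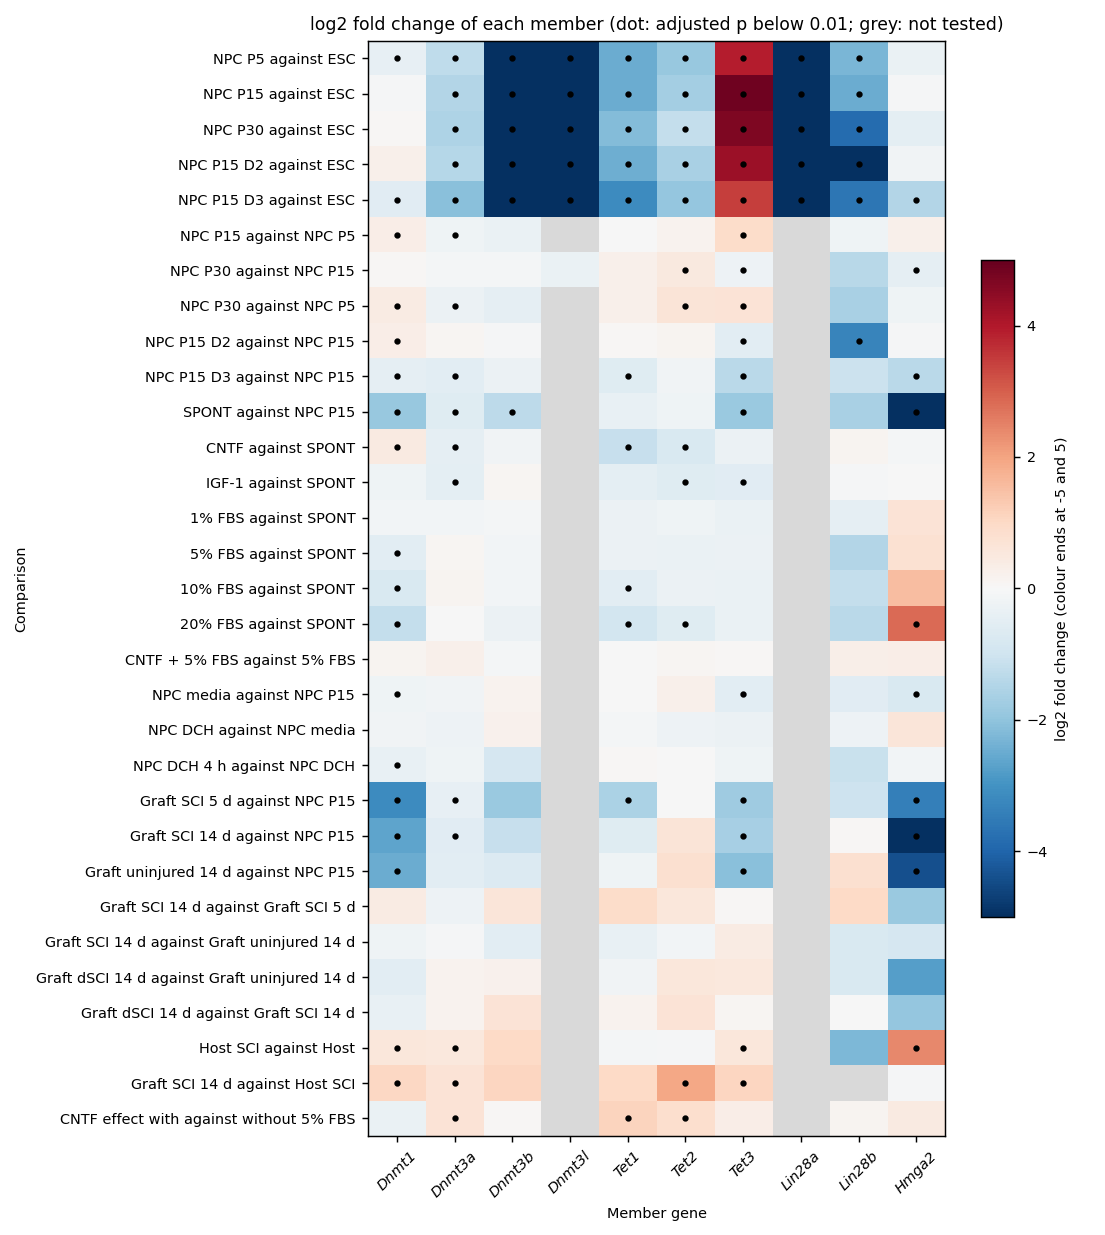
The colour of each cell gives the log2FC of 1 member (horizontal axis) in 1 of the 31 comparisons (vertical axis), with a dot where the adjusted p is below 0.01 and grey where the gene was not tested. Dnmt1 and Hmga2 were lower in SPONT and in the 3 graft comparisons with NPC P15, and Tet3 was higher in each NPC group than in ESC.

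Added CNTF, a cytokine that promotes astrocyte differentiation, lowered Tet1 and Tet2 and raised Dnmt1. One member was higher and 3 lower in CNTF than in SPONT, with 10.8% and 9.15% of all genes called in those directions and 19.9% in all. Tet1 measured 21.8, 14.3, 16.8 and 18.0 CPM in SPONT and 7.47, 8.89, 7.45 and 7.95 CPM in CNTF (log2FC -1.14, SE 0.13, adjusted p = 6.4e-05). Tet2 measured 18.4, 13.8, 18.5 and 19.2 CPM in SPONT and 10.5, 11.4, 9.1 and 9.08 CPM in CNTF (log2FC -0.78, SE 0.12, adjusted p = 6.3e-04). Dnmt1 measured 113, 118, 115 and 126.9 CPM in CNTF, above all 4 SPONT libraries (log2FC 0.47, SE 0.074, adjusted p = 8.0e-04). Neither Tet1, Tet2 nor Dnmt1 overlapped between the groups. Dnmt3a measured 85.1, 85.1, 76.0 and 85.3 CPM in CNTF (log2FC -0.44, SE 0.089, adjusted p = 0.0038). The Dnmt3a call was lost without any 1 of SPONT replicates 3 and 4 or CNTF replicates 1, 2, 3 and 4 (adjusted p from 0.012 to 0.018). Cell cycle markers summed to 778 to 795 CPM in CNTF, above the 373 to 430.3 CPM of SPONT, and astrocyte markers to 22141 to 23177 against 7161 to 10958 CPM. Their part in these differences was not tested. Uhrf1 was higher too (log2FC 0.41, SE 0.065, adjusted p = 8.0e-04), and of the 46 further genes 8 rose and 4 fell.

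IGF-1, which favours oligodendroglia, gave calls for Dnmt3a (log2FC -0.48, SE 0.096, adjusted p = 0.0087), Tet2 (log2FC -0.60, SE 0.11, adjusted p = 0.0074) and Tet3 (log2FC -0.58, SE 0.12, adjusted p = 0.0087), all lower than in SPONT, where 6.55% of genes were called. Tet2 measured 12.4, 12.0, 9.68 and 10.5 CPM and Tet3 40.4, 40.7, 30.0 and 35.7 CPM in IGF-1, against 18.4, 13.8, 18.5 and 19.2 and 67.1, 44.1, 57.5 and 57.5 CPM in SPONT. SPONT replicate 2 was the lowest SPONT library for Dnmt1, Dnmt3a, Tet1, Tet2 and Tet3. The Tet2 call was lost without any 1 of SPONT replicates 1, 3 and 4 or IGF-1 replicates 1, 2, 3 and 4 (adjusted p from 0.014 to 0.033). The Tet3 call was lost without any 1 of SPONT replicates 1, 3 and 4 or IGF-1 replicates 1, 2, 3 and 4 (adjusted p from 0.016 to 0.037). The Dnmt3a call was lost without any 1 of SPONT replicates 1, 3 and 4 or IGF-1 replicates 1, 2, 3 and 4 (adjusted p from 0.015 to 0.038). Without SPONT replicate 2 these 3 calls held, Tet1 was also called (-0.56), and the number of genes called over the transcriptome went from 979 to 5724. Without that library Tet3 was also called lower in CNTF and in 1, 5 and 20% FBS, with log2FC from -0.43 to -0.38.

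Serum was given at 4 concentrations against the serum-free SPONT, and the 4 comparisons share the SPONT libraries. Dnmt1 measured 94.3, 76.3, 91.2 and 85.3 CPM without serum, 71.6, 86.2, 78.7 and 75.5 at 1%, 64.9, 69.7, 54.9 and 51.8 at 5%, 46.4, 51.4, 53.8 and 53.6 at 10% and 36.9, 39.4, 42.4 and 37.4 at 20% FBS. The 5%, 10% and 20% libraries lay below all SPONT libraries. Dnmt1 was called lower at 5% (log2FC -0.52, SE 0.11, adjusted p = 0.0035), 10% (log2FC -0.75, SE 0.083, adjusted p = 3.2e-05) and 20% (log2FC -1.19, SE 0.084, adjusted p = 3.2e-07). The Dnmt1 call at 5% was lost without any 1 of SPONT replicate 3 or 5% FBS replicates 3 and 4 (adjusted p from 0.012 to 0.013). With replicate numbers as a block, though no label pairs them, the Dnmt1 log2FC at 5% was -0.52. Hmga2 rose from 0.104, 0.113, 0.177 and 0.29 CPM without serum to 1.47, 1.00, 1.27 and 1.29 CPM at 20% FBS (log2FC 2.82, SE 0.33, adjusted p = 2.2e-05), and those groups did not overlap. Hmga2 passed the low-count filter only through the serum group at each concentration, so calls of Hmga2 here are descriptions. At 10% it measured 0.299, 0.359, 0.748 and 0.581 CPM (log2FC 1.54, adjusted p = 0.012), and without SPONT replicate 4 that difference was called (1.91). Even at 20% the level of Hmga2 was below that of every cultured NPC library, the lowest of which held 7.94 CPM.

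Tet1 and Tet2 were lower at 20% FBS. Tet1 measured 10.8, 9.1, 9.65 and 9.27 CPM (log2FC -0.91, SE 0.13, adjusted p = 9.2e-05) and Tet2 10.9, 11.5, 11.4 and 13.3 CPM (log2FC -0.61, SE 0.12, adjusted p = 9.1e-04), below all SPONT libraries in both cases. At 10% Tet1 was called (log2FC -0.51, SE 0.13, adjusted p = 0.0068). The Tet1 call was lost without any 1 of SPONT replicates 1, 3 and 4 or 10% FBS replicates 1, 2 and 3 (adjusted p from 0.013 to 0.024). Dnmt3a measured 114 ± 15.2, 100.95 ± 5.59, 123 ± 6.73, 125 ± 14.4 and 114 ± 2.09 CPM (SD, n = 4) from 0 to 20% FBS and was not called at any concentration (20% FBS log2FC -0.04, adjusted p = 0.73). The shares of all genes called were 8.78% at 1%, 34.1% at 5%, 45% at 10% and 55.5% at 20% FBS (27.6% higher and 27.9% lower), beside 0, 1, 2 and 4 of the 8 members tested, the 4 at 20% being 1 higher and 3 lower. The 1 higher was Hmga2, which entered the test only through the serum group, so the count of 4 is a description. At 1% FBS edgeR called no member, DESeq2 called 0, and 1 member (Tet3) had an unadjusted p below 0.05.

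Within the pathways, Uhrf1 measured 59.1, 68.9, 32.2, 13.9 and 8.63 CPM over the series of serum concentrations (20% FBS log2FC -2.82, SE 0.12, adjusted p = 5.3e-09). Trim71 measured 0.829, 1.05, 2.2, 2.59 and 3.83 CPM (log2FC 2.17, SE 0.19, adjusted p = 2.4e-06), and Igf2bp1, which had at most 2 counts in a SPONT library and passed the low-count filter only through the serum group, measured 0.69 ± 0.224 CPM at 20% FBS. Of the 9 tested genes listed for the let-7 and Lin28 axis, 3 were higher and 3 lower at 20% FBS. Hmga1 fell (log2FC -1.25, SE 0.11, adjusted p = 2.2e-06), as did Tdg (log2FC -1.12, SE 0.10, adjusted p = 2.6e-06). Of the 46 further genes 12 were higher and 19 lower at 20% FBS, and 6 of the 7 maintenance and targeting genes tested were lower. Of all genes 27.6% were higher and 27.9% lower at that concentration. Cell cycle markers summed to 182 to 211 CPM at 20% FBS, below SPONT, and the 6 fibroblast and vessel markers to 418 to 528 CPM against 6.72 to 9.45 CPM in SPONT, with none of the 6 at 0. Their part in the Hmga2 and Dnmt1 differences was not tested.

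**Figure D3:**
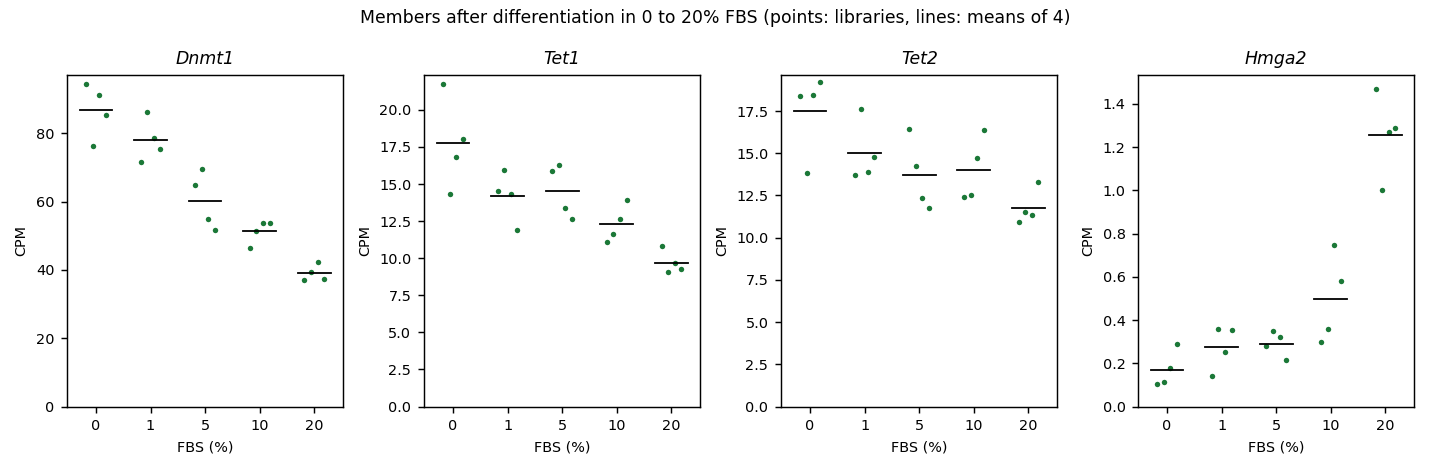
CPM of members over FBS concentration in percent, with a point per library and a line at the mean of 4. Dnmt1 goes down from 86.8 to 39.04 CPM and Hmga2 goes up from 0.171 to 1.26 CPM between 0 and 20% FBS.

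The CNTF effect on Dnmt3a, Tet1 and Tet2 differed when 5% FBS was present. In CNTF with 5% FBS Tet1 measured 15.1, 16.7, 13.6 and 14.7 CPM against 15.9, 16.3, 13.4 and 12.7 CPM in 5% FBS alone, and the groups overlapped. The test of the difference between the CNTF effects gave log2FC 1.10, SE 0.17, adjusted p = 1.4e-04 for Tet1, log2FC 0.86, SE 0.17, adjusted p = 0.0013 for Tet2 and log2FC 0.67, SE 0.11, adjusted p = 3.2e-04 for Dnmt3a, a positive value meaning a CNTF effect that was higher with serum. Tet2 measured 14.0, 17.2, 15.3 and 14.9 CPM with both and 16.5, 14.2, 12.3 and 11.7 CPM in 5% FBS. Dnmt3a measured 146, 165, 146 and 152 CPM with both and 132, 117, 119.6 and 122 CPM in 5% FBS, whereas CNTF without serum lay below SPONT for this gene. Dnmt1 (log2FC -0.35, adjusted p = 0.038) and Tet3 (log2FC 0.34, adjusted p = 0.070) were not called in that test. Without SPONT replicate 2 Tet3 was called (0.44). Of all genes 22.9% were called in the test of the difference, and 23.3% in CNTF with 5% FBS against 5% FBS, where edgeR called none of the 8 members tested, DESeq2 called 1 (Dnmt3a), and 1 (Dnmt3a) had an unadjusted p below 0.05. Igf2bp3 (log2FC -1.15, SE 0.23, adjusted p = 0.0014) was called as well. All 3 member calls held when any 1 of the 16 libraries was left out, with Tet1 from 1.00 to 1.18, Tet2 from 0.79 to 0.96 and Dnmt3a from 0.60 to 0.74 on the log2FC scale.

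**Figure D4:**
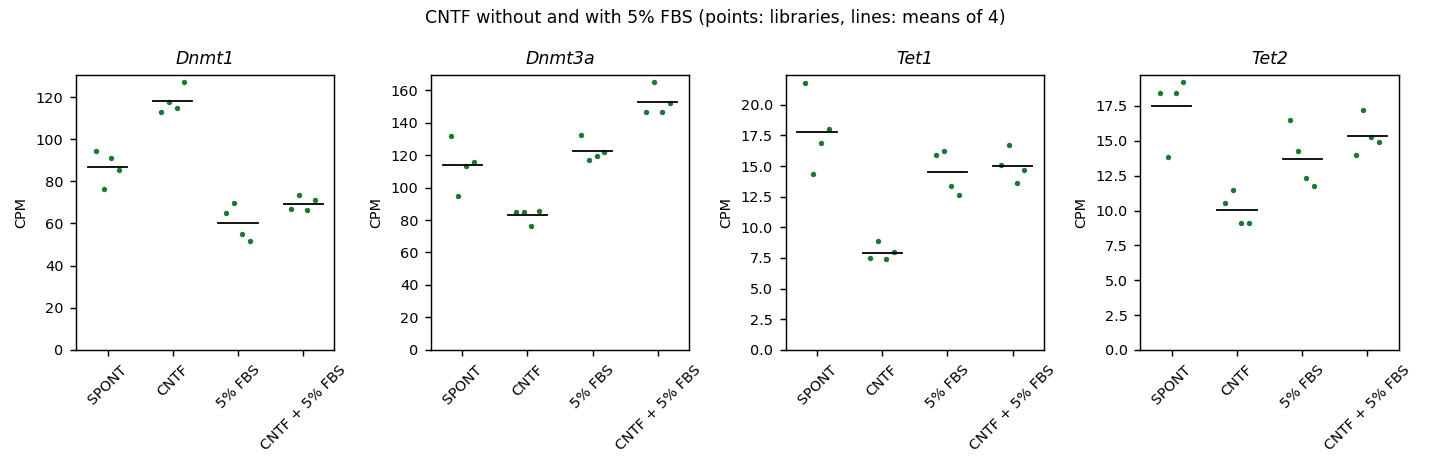
CPM of Dnmt1, Dnmt3a, Tet1 and Tet2 (vertical axes, from 0) in SPONT, CNTF, 5% FBS and CNTF with 5% FBS, with a point per library and a line at the mean of 4. For Tet1 the CNTF libraries, at 7.45 to 8.89 CPM, lie below SPONT at 14.3 to 21.8 CPM, whereas the libraries with CNTF and 5% FBS, at 13.6 to 16.7 CPM, overlap those with 5% FBS at 12.7 to 16.3 CPM.

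Passage through glass pipettes, a step of the grafting procedure, was followed by lower Hmga2, Tet3 and Dnmt1 in media than in NPC P15. Hmga2 measured 12.7, 15.6, 15.7, 12.4 and 13.1 CPM (log2FC -0.76, SE 0.13, adjusted p = 1.5e-04) and Tet3 146, 162, 158.4, 158.1 and 134.6 CPM (log2FC -0.54, SE 0.069, adjusted p = 4.1e-06), all below the NPC P15 libraries. Dnmt1 measured 263, 289, 293, 347.5 and 313 CPM (log2FC -0.23, SE 0.062, adjusted p = 0.0070). The Dnmt1 call was lost without any 1 of NPC P15 replicates 1, 2, 3 and 4 or NPC media replicates 1, 2, 3 and 5 (adjusted p from 0.0103 to 0.034). Of all genes 26.2% were called. The stock is not named, and against NPC P15 D3 the same libraries gave the opposite signs, with log2FC 0.57 for Hmga2, 0.79 for Tet3 and 0.20 for Dnmt1. Dnmt1 was lower after 4 h in DCH, at 204, 195, 215, 194.4 and 208 CPM against 270.0, 272, 275, 247 and 259 CPM in DCH (log2FC -0.38, SE 0.052, adjusted p = 1.3e-04), with no overlap, and was the only member called there among 0.320% of all genes. Between DCH and media 4.32% of genes were called, and edgeR called none of the 8 members tested. DESeq2 called 3 (Dnmt3a, Tet3 and Hmga2), and 4 (Dnmt1, Dnmt3a, Tet3 and Hmga2) had an unadjusted p below 0.05. Hmga2 measured 21.01 ± 3.84 CPM in DCH and 13.9 ± 1.63 CPM in media (log2FC 0.61, adjusted p = 0.017).

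After grafting, Dnmt1 and Hmga2 were lower than in NPC P15 in each of the 3 comparisons, which share the NPC P15 libraries. Grafts were not compared with pipetted NPC. In NPC DCH the means were 265 CPM for Dnmt1, 144 for Dnmt3a, 23.2 for Tet1, 125 for Tet3 and 21.01 for Hmga2. In NPC P15 they were 353, 191, 24.7, 220.4 and 23.6 CPM. The part of pipetting in the graft differences was therefore not tested, and that of stock only through NPC P15 D3. In bulk samples fewer tagged cells of a type and less RNA per cell cannot be told apart. Dnmt1 measured 26.3, 42.1, 39.1, 40.8 and 40.3 CPM in Graft SCI 5 d (log2FC -3.14, SE 0.14, adjusted p = 6.8e-08). It measured 72.8, 33.8, 43.01, 27.6 and 48.4 CPM in Graft SCI 14 d (log2FC -2.64, SE 0.24, adjusted p = 1.6e-06) and 78.9, 59.5, 77.8, 55.2 and 45.2 CPM in Graft uninjured 14 d (log2FC -2.46, SE 0.15, adjusted p = 1.8e-07). Every graft library lay below the lowest NPC P15 library, at 339.2 CPM. Hmga2 measured 2.69, 1.27, 2.89, 1.69 and 1.91 CPM in Graft SCI 5 d (log2FC -3.41, SE 0.27, adjusted p = 1.9e-06), 0.0388, 0.376, 0.791, 1.34 and 0 CPM in Graft SCI 14 d (log2FC -5.20, SE 0.91, adjusted p = 3.4e-04) and 0, 1.23, 1.67, 2.51 and 0.188 CPM in Graft uninjured 14 d (log2FC -4.38, SE 1.01, adjusted p = 0.0028). The lowest Hmga2 library at 5 d lay above 4 of the 5 at 14 d in injured cord, yet the days were not called apart (log2FC -1.86, adjusted p = 0.32). In counts Hmga2 was 3, 24, 48, 68 and 0 in Graft SCI 14 d and 31, 3, 0, 16 and 0 in Graft dSCI 14 d.

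Tet3 was lower than in NPC P15 as well, at 74.5, 62.4, 59.6, 55.9 and 49.3 CPM in Graft SCI 5 d (log2FC -1.78, SE 0.14, adjusted p = 1.5e-06) and 53.5, 51.1, 35.2, 47.3 and 82.7 CPM in Graft SCI 14 d (log2FC -1.66, SE 0.26, adjusted p = 1.4e-04), and in Graft uninjured 14 d (log2FC -2.10, SE 0.26, adjusted p = 2.8e-05). Tet1 was lower at 5 d, at 7.41, 8.16, 5.78, 7.33 and 10.1 CPM (log2FC -1.59, SE 0.20, adjusted p = 5.4e-05). In Graft SCI 14 d Tet1 was not called with all libraries, and was called without replicate 5 (log2FC -0.89). It was also called with replicate numbers as a block (-0.90). NPC P15 holds no replicate 5, so that block sets the same library aside and is not a separate check. Dnmt3a was lower by less, in Graft SCI 5 d (log2FC -0.40, SE 0.10, adjusted p = 0.0056) and Graft SCI 14 d (log2FC -0.57, SE 0.13, adjusted p = 0.0027). The Dnmt3a call at 5 d was lost without any 1 of NPC P15 replicates 1, 2, 3 and 4 or Graft SCI 5 d replicates 2, 3 and 5 (adjusted p from 0.012 to 0.019). The Dnmt3a call at 14 d was lost without NPC P15 replicate 1 (adjusted p = 0.012). In Graft uninjured 14 d Dnmt3a was called without replicate 5 (-0.39). Tet2 measured 21.2, 19.2, 15.6, 22.1 and 54.0 CPM in Graft SCI 14 d and 25.6, 32.6, 67.4, 54.2 and 12.2 CPM in Graft uninjured 14 d, on both sides of the NPC P15 range of 17.8 to 26.3 CPM, and was not called (log2FC 0.65, adjusted p = 0.18 and log2FC 0.78, adjusted p = 0.11). With NPC P15 D3 as the reference the Tet3 call was lost in both injured groups (log2FC -0.48 at 5 d and -0.40 at 14 d), and Dnmt3a was not called in either (0.09 and -0.12), whereas Dnmt1 and Hmga2 were called in both. In Graft uninjured 14 d the Hmga2 call was lost with that reference (log2FC -3.18, adjusted p = 0.016) and with replicate numbers as a block (log2FC -4.73, adjusted p = 0.012).

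Against NPC P15, 5 members were lower and none higher in Graft SCI 5 d, where 27.9% of genes were lower, 29.8% higher and 57.7% called in all. In Graft SCI 14 d 4 were lower and none higher, with 22.5% of genes lower, 29.5% higher and 52% called. In Graft uninjured 14 d Dnmt1, Tet3 and Hmga2 were called among 52.3% of genes. In Graft SCI 14 d Hmga2 passed the low-count filter only through NPC P15, so the count of 4 there is a description. Cell cycle markers summed to 168.1 to 278 CPM in Graft SCI 5 d, 118.7 to 226 in Graft SCI 14 d and 92.1 to 150.2 in Graft uninjured 14 d, against 1917 to 1999 in NPC P15. Fibroblast and vessel markers summed to 3547 to 11756, 548 to 2065 and 904 to 2493 CPM in the same groups, against 7.84 to 9.74 in NPC P15, and the part of any of these in the differences was not tested. The myeloid sum of Graft SCI 5 d replicate 4 was 6193 CPM, and without that library the log2FC of Dnmt1 was -3.20 and of Hmga2 -3.37. Uhrf1 (log2FC -3.51, SE 0.23, adjusted p = 1.5e-07), Hells (log2FC -4.05, SE 0.33, adjusted p = 6.7e-07) and Tdg (log2FC -1.19, SE 0.29, adjusted p = 0.0033) were lower in Graft SCI 14 d, and of the 46 further genes 10 were higher and 18 lower there and 8 and 22 in Graft SCI 5 d.

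The ESC genes did not return in grafts. Lin28a had 0 counts in all 20 graft libraries. With a floor of 3 counts over the group this puts it at least 6767-fold below ESC in the shallower, single-read Graft SCI 5 d. The same floor gave 27906-fold in Graft SCI 14 d, which overstates the bound because both mates were counted there. Dnmt3l counts were 0, 0, 0, 17 and 0 in Graft SCI 5 d, 0, 0, 30, 0 and 0 in Graft SCI 14 d, 0, 0, 0, 0 and 7 in Graft uninjured 14 d and 196, 0, 0, 4 and 0 in Graft dSCI 14 d. The 196 counts of Dnmt3l were all in 1 library, whose Lin28a count was 0. Dnmt3b measured 0.244, 1.47, 1.8, 1.97 and 0.283 CPM in Graft SCI 5 d and was not called there against NPC P15 (log2FC -1.86, adjusted p = 0.029). In that comparison it passed the low-count filter only through NPC P15. Dnmt3b measured 1.04, 7.05, 1.19, 1.91 and 2.16 CPM in Graft dSCI 14 d, a group that was not tested against NPC P15. Lin28b counts spread widely within each graft group, at 36, 0, 0, 220 and 38 in Graft SCI 14 d, 0, 146, 482, 163 and 93 in Graft uninjured 14 d and 0, 382, 0, 66 and 47 in Graft dSCI 14 d.

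Between graft groups edgeR called none of the 8 members tested. Of all genes 5.30% were called between 14 d and 5 d in injured cord, 4.64% between injured and uninjured cord, 4.19% between doubly crushed and uninjured cord and 1.83% between doubly and singly crushed cord, and DESeq2 called 0 members in each. One member had an unadjusted p below 0.05 between 14 d and 5 d (Tet1) and 1 between doubly crushed and uninjured cord (Dnmt1), and 0 did in the other two comparisons. The spread within groups was wide. Tet2 measured 39.2, 49.6, 53.4, 19.2 and 57.9 CPM in Graft dSCI 14 d and ran from 12.2 to 67.4 CPM in Graft uninjured 14 d, and Dnmt3a ran from 69.6 to 179.01 CPM in the latter. Replicate 5 of Graft uninjured 14 d was the lowest of its group for Dnmt1, Dnmt3a, Tet1, Tet2 and Tet3, and its myeloid sum of 925 CPM was the highest.

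Host astrocytes held the lowest Dnmt1 of all groups and changed after injury. Dnmt1 in the 9 Host libraries had a lowest of 9.3, a median of 12.3 and a highest of 16.9 CPM, and in Host SCI measured 22.7, 22.6, 24.1, 23.1 and 15.2 CPM (log2FC 0.55, SE 0.12, adjusted p = 0.0013). Of the Host SCI libraries, 4 lay above the Host range and replicate 5 lay inside it. Dnmt3a had a lowest of 32.4, a median of 35.2 and a highest of 47.5 CPM in Host and measured 71.0, 69.8, 64.3, 61.9 and 45.3 CPM in Host SCI (log2FC 0.53, SE 0.12, adjusted p = 8.4e-04), again with replicate 5 lowest. Tet3 had a lowest of 11.8, a median of 14.9 and a highest of 19.6 CPM in Host and measured 29.2, 26.5, 23.9, 24.8 and 22.1 CPM in Host SCI (log2FC 0.56, SE 0.12, adjusted p = 9.9e-04), with no overlap. Hmga2 was near 0, with counts of 3, 15, 12, 8, 2, 14, 0, 7 and 0 in Host and 0.313, 0.86, 0.461, 0.334 and 0.545 CPM in Host SCI (log2FC 2.41, SE 0.70, adjusted p = 0.0081). Hmga2 passed the low-count filter only through Host SCI. The Hmga2 call was lost without any 1 of Host replicates 1, 5 and 8 or Host SCI replicates 1, 2, 3, 4 and 5 (adjusted p from 0.011 to 0.032). Tet1 (log2FC -0.09, adjusted p = 0.76) and Tet2 (log2FC -0.06, adjusted p = 0.71) were not called.

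Thus 4 members were higher and none lower after injury, where 22.2% of all genes were higher, 18.8% lower and 41.1% called in all. Hmga2 is among the 4 and passed the low-count filter only through Host SCI, so this count is a description. Uhrf1 (log2FC 2.05, SE 0.27, adjusted p = 6.3e-06), Hells (log2FC 1.14, SE 0.29, adjusted p = 0.0029) and Hmga1 (log2FC 0.99, SE 0.10, adjusted p = 2.9e-07) were higher, Tdg (log2FC -0.53, SE 0.13, adjusted p = 0.0026) was lower, and of the 46 further genes 15 were higher and 11 lower. Cell cycle markers summed to 126 to 173 CPM in Host SCI against 64.9 to 79.8 in Host. Myeloid markers summed to 149 to 922 against 13.2 to 24.1 CPM and oligodendroglial markers to 20309.5 to 34725 against 5908 to 11223 CPM, and the part of these in the host differences was not tested. Without Host SCI replicate 2, which held the highest myeloid sum at 922 CPM, the log2FC of Dnmt1 was 0.53 and of Tet3 0.55, and both calls held. Host replicate numbers pair no animals, and with them as a block 1 of the 4 calls was left (Dnmt1).

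In crush lesions recovered at 14 d, grafts held more of 4 members than host astrocytes, where 14.6% of genes were called. Host SCI is labelled as 14 days after crush. The graft labels do not say whether days count from injury or from grafting, and the paper uses both. The groups may therefore lie 2 days apart after injury. Tet2 measured 21.2, 19.2, 15.6, 22.1 and 54.0 CPM in Graft SCI 14 d and 6.3, 6.75, 7.83, 7.61 and 6.18 CPM in Host SCI (log2FC 1.95, SE 0.36, adjusted p = 0.0018), with no overlap, and this call held in every leave-one-out fit. Dnmt3a (log2FC 0.67, SE 0.14, adjusted p = 0.0045) and Tet3 (log2FC 1.08, SE 0.24, adjusted p = 0.0048) were higher in grafts too, as was Dnmt1 (log2FC 1.02, SE 0.23, adjusted p = 0.0059), each with no overlap between the groups. The Dnmt1 call was lost without any 1 of Host SCI replicates 1, 2, 3, 4 and 5 or Graft SCI 14 d replicates 1, 3 and 5 (adjusted p from 0.012 to 0.018). The Dnmt3a call was lost without any 1 of Host SCI replicates 1, 2, 3, 4 and 5 or Graft SCI 14 d replicate 1 (adjusted p from 0.010004 to 0.014). The Tet3 call was lost without any 1 of Host SCI replicates 1, 2, 3, 4 and 5 (adjusted p from 0.011 to 0.015). Tet1 was not called (log2FC 1.00, adjusted p = 0.020). Astrocyte markers summed to 10321 to 21961 CPM in Graft SCI 14 d and 26200.5 to 40882 CPM in Host SCI. Oligodendroglial markers summed to 4763 to 11287 and 20309.5 to 34725 CPM, and neuronal markers to 515 to 704 and 189 to 434.5 CPM. These ranges did not overlap, those of the other marker classes did, and their part in the differences was not tested. Myeloid markers summed to 291 to 973 CPM in Graft SCI 14 d and 149 to 922 CPM in Host SCI. The graft library with the highest Tet2, replicate 5, had the highest myeloid sum of its group, 973 CPM. Without it the log2FC of Tet2 was 1.36.

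**Figure D5:**
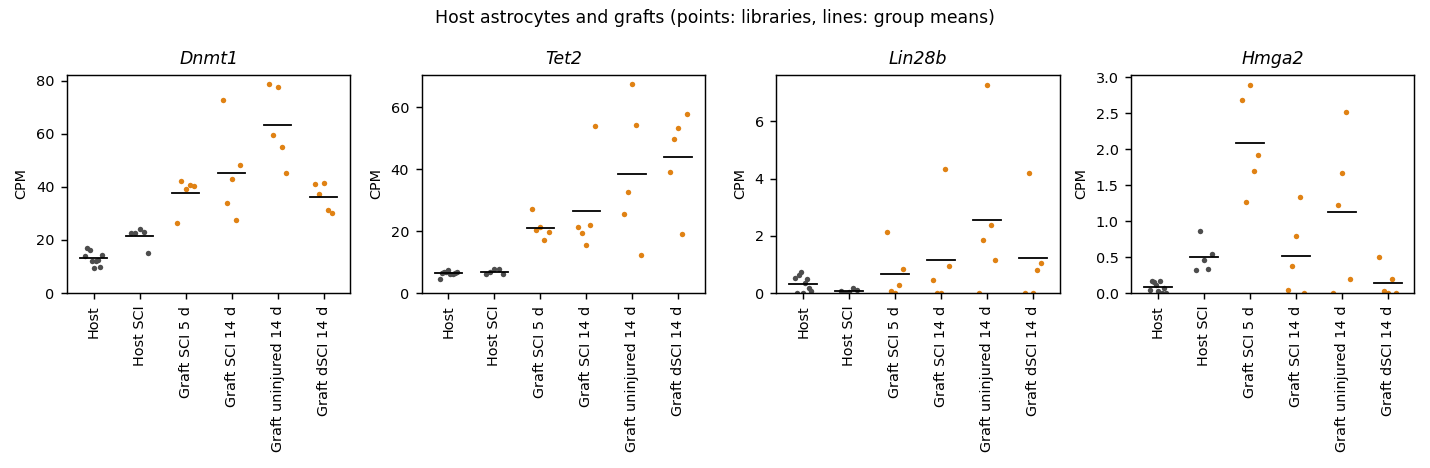
CPM of Dnmt1, Tet2, Lin28b and Hmga2 (vertical axes, from 0) in host astrocytes and grafts, with a point per library and a line at the group mean. Dnmt1 lies lowest in Host, Tet2 in Graft SCI 14 d lies above Host SCI, and Hmga2 ran from 1.27 to 2.89 CPM in Graft SCI 5 d against 0 to 0.172 CPM in Host.

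Across all 23 groups Dnmt1 was ordered as NPC P15 D2 (448 ± 40.3 CPM), NPC P30, NPC P15, ESC, NPC media, NPC P5, NPC DCH, NPC P15 D3, NPC DCH 4 h, CNTF, SPONT and then the serum, graft and host groups down to Host (13.0 ± 2.56 CPM). Library ranges of neighbours in that order were apart at 4 steps, those from NPC P5 to NPC DCH, from NPC DCH 4 h to CNTF, from CNTF to SPONT and from Graft dSCI 14 d to Host SCI, and overlapped at the others. Tet3 was ordered from NPC P15 (220.4 ± 20.5 CPM) through NPC P30, NPC P15 D2, NPC media, NPC DCH, NPC P5, NPC DCH 4 h and NPC P15 D3 to the graft and differentiated groups, whose library ranges overlapped between neighbours down to IGF-1 (36.7 ± 4.99 CPM), and then Host SCI, Host and ESC, each apart from the one before. Hmga2 held 13.9 ± 1.63 CPM or more in every culture of ESC or NPC except NPC P15 D3 (8.94 ± 1.1 CPM), and 2.09 ± 0.681 CPM or less in all differentiated, grafted and host groups, with gaps between library ranges on both sides of NPC P15 D3. For Dnmt3a, Dnmt3b and Tet1 the ESC libraries lay above all others, and for Tet2 above those of the next group. Below ESC, Tet2 was ordered Graft dSCI 14 d (43.9 ± 15.4 CPM), Graft uninjured 14 d, NPC P30 and so on to CNTF (10.0 ± 1.15 CPM), with overlap between all neighbours, and only the host groups lay apart below it. Dnmt3a and Tet1 were lowest in Host as well, at 37.9 ± 5.51 and 5.86 ± 1.72 CPM.

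Among the members, group means of log2(CPM + 1) were most alike for Dnmt3l and Lin28a (Pearson r = 0.999 over 23 groups) and least alike for Tet3 with Lin28a (r = -0.555). The first pair rests on ESC alone, since both were near 0 in the other 22 groups. Dnmt1 and Hmga2 gave r = 0.868. The genes of the transcriptome most like each member by that measure were Clspn (0.985), Pole and Nup205 for Dnmt1, Smc2 (0.978), Mms22l and Mthfd1l for Hmga2, Ets1 (0.976), 9330188P03Rik and Plxna2 for Tet3, Hmgxb4 (0.958), Brpf3 and Pcgf6 for Tet1, Ino80 (0.938), Cbfa2t2 and Helz for Dnmt3a, and Mllt10 (0.902), Ccnl1 and Tnrc6c for Tet2. For Dnmt3b they were Tcf15 (0.970), Mtf2 and Tcfl5, for Lin28b Dnajc21 (0.931), Camsap3 and Rpp25, and for Lin28a and Dnmt3l genes measured in ESC only to a comparable degree, such as Gpa33, Hand1 and Aqp3 for Dnmt3l. These correlations are descriptions over group means that share libraries and reference groups.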

How the data were processed

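The values the authors deposited are raw counts of reads per gene, 1 table of 27179 genes per library. Per the labels and the study's methods, they ran Trimmomatic, HISAT2 (mm10) and featureCounts in Galaxy. Versions are not given in the sources used here. Per the file headers, 96 libraries combine 2 read data sets and 11 hold 1. Both mates were counted in the former, as their excess of even counts shows (53.1 to 73.8% against 43.1 to 48.5%). Antisense and overlapping reads were not separable.

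Symbols and positions came from RefSeq (GRCm38.p6) and GENCODE M21, and all 10 members and 46 pathway genes matched. CPM is the count scaled to a library total of 1e6, and FPKM divides it by union exon length. Each of 30 pairs of groups, and the CNTF by serum contrast, was fitted alone in edgeR 4.0.16 (R 4.3.3) with TMM factors, filterByExpr at a minimum count of 10, the quasi-likelihood F test and Benjamini-Hochberg adjustment over all tested genes, and called at an adjusted p below 0.01. SE is the log2FC divided by the root of F. Scripts were tested on counts drawn with known changes. Depth was 12286240 to 147764968 counts, so 3 counts correspond to well under 1 CPM.

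Alternatives were DESeq2 size factors, DESeq2 1.42.0, no low-count filter, replicate numbers as a block, each library left out, and NPC P15 D3 as reference. The members, pathway list, marker lists and tests were chosen with earlier results of these data known. Named pathway genes and the 3 most alike genes per member followed a rule written with those lists, the latter by Pearson correlation over 23 group means of log2(CPM + 1), with a group mean of at least 5 CPM. The lists hold 5 pluripotency, 5 neural progenitor, 8 cell cycle, 6 astrocyte, 6 oligodendroglial, 5 neuronal, 7 myeloid and 6 fibroblast and vessel markers. Same-numbered replicates deviated together in every pair (r from 0.115 to 0.319, mean 0.214) only for 5% FBS against SPONT, among the 30 pairs of groups. For 10% FBS against SPONT the mean r was higher (0.259), but the lowest was 0.0781. Numbers were treated as pairs at 5% FBS only, and no label says that they pair samples. No 2 libraries held identical values. Protein sequences were not used here. A listed pathway gene is not reported here by name.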

Additional observations from a re-analysis of the deposited data

Results flagged for a closer look

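In 28 of 204 sets of 1 member in 1 group of 4 to 10 libraries, a single library stood far from the rest by Dixon's criterion, and chance gives about 5% of sets. For Dnmt1 these were Host SCI replicate 5 (15.2 CPM, others 22.6 to 24.1) and Graft SCI 5 d replicate 1 (26.3, others 39.1 to 42.1). For Dnmt3a they were CNTF replicate 3 (76.0 CPM) and Graft SCI 5 d replicate 3 (121.3), for Dnmt3b IGF-1 replicate 3 (1.11) and Graft dSCI 14 d replicate 2 (7.05), and for Tet3 NPC P5 replicate 1 (108.5). Tet1 in Graft SCI 14 d replicate 5 was at 19.4 CPM and Tet2 in the same library at 54.0. Other Tet2 values were ESC replicate 4 (80.7 CPM), SPONT replicate 2 (13.8), NPC DCH 4 h replicate 5 (30.3) and Host replicate 1 (4.49). Hmga2 stood out in NPC P5 replicate 2 (21.97 CPM).

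For Dnmt3l the far library was ESC replicate 2 (1057 CPM) and, in groups otherwise near 0, Host replicate 5 (0.231), Graft SCI 14 d replicate 3 (0.494), Graft uninjured 14 d replicate 5 (0.0878), Graft dSCI 14 d replicate 1 (3.13) and Graft SCI 5 d replicate 4 (1.20). For Lin28a it was NPC P5 replicate 2 (0.362 CPM), Host replicate 3 (0.0800) and Host SCI replicate 5 (0.229), and for Lin28b NPC P15 replicate 4 (1.93), NPC P30 replicate 3 (1.67), NPC P15 D2 replicate 5 (0.668), Graft SCI 14 d replicate 4 (4.32) and Graft dSCI 14 d replicate 2 (4.21).

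The CNTF effect differed with and without 5% FBS by a test of the difference itself in edgeR for Dnmt3a (0.67 on the log2 scale, adjusted p = 3.2e-04), Tet1 (1.10, adjusted p = 1.4e-04) and Tet2 (0.86, adjusted p = 0.0013).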

How the results depend on the processing

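Leaving out no library, 1010 values of single members under the other settings stayed on the same side of the threshold. Of the rest, 22 lost a call, 21 gained one and 4 called with the main settings took the opposite sign. Values called under neither setting were counted as the same whatever their sign, and gained calls were counted whatever their sign in the main fit. With NPC P15 D3 in place of NPC P15, the log2FC in NPC media was 0.20 for Dnmt1, 0.79 for Tet3 and 0.57 for Hmga2, and in Graft SCI 5 d 0.095 for Dnmt3a. The number of members called with that reference was 3 in SPONT (5 with NPC P15), 5 in NPC media (3), 3 in Graft SCI 5 d (5) and 2 in Graft SCI 14 d (4). DESeq2 called 1 member in CNTF with 5% FBS against 5% FBS and 3 in NPC DCH against NPC media, where edgeR called 0.

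DESeq2 called more genes of the transcriptome in 9 comparisons, 3619 against 979 in IGF-1, 2555 against 1312 in 1% FBS, 1021 against 599 in NPC DCH against NPC media, 162 against 44 in NPC DCH 4 h, 1775 against 811 between the graft days, 1918 against 734 and 1732 against 666 for injured and doubly crushed against uninjured cord, 1276 against 289 for doubly against singly crushed cord, and 3709 against 2425 in Graft SCI 14 d against Host SCI. Without the low-count filter the doubly against singly crushed comparison gave 440.

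Replicate numbers were checked for pairing. They did not deviate together in every pair outside 5% FBS against SPONT, so the block there tests a shared number only. With the block, IGF-1 against SPONT gave 1 gene and 0 members, 1% FBS 833 genes, NPC DCH against NPC media 393, the graft days 269, doubly crushed against uninjured cord 35, doubly against singly crushed cord 0, Host SCI against Host 4221 genes against 6933 and 1 member against 4, and Graft SCI 14 d against Host SCI 1177 genes against 2425 and 1 member against 4. In the 5% FBS comparison, where the numbers were treated as pairs, the block changed no member call.

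Leaving out 1 library at a time, 90 of 107 member calls were kept in every fit, and 17 were lost in at least 1. Members called ranged from 1 to 2 in NPC P30 against NPC P15 (3 with all libraries), 0 to 4 in IGF-1 (3), 0 to 1 in 1% FBS (0), 0 to 2 in 5% FBS (1), 1 to 2 in 10% FBS (2), 0 to 1 in CNTF with 5% FBS and in NPC DCH against NPC media (0 each), and 1 to 4 in Graft SCI 14 d against Host SCI (4). Genes called ranged from 2027 to 6049 in CNTF (2961), 0 to 5724 in IGF-1, 628 to 1975 in 1% FBS, 1968 to 3908 in CNTF with 5% FBS (3564), 385 to 656 in NPC DCH against NPC media, 350 to 1191 between graft days, 232 to 1576 in injured and 197 to 864 in doubly crushed against uninjured cord, 0 to 1061 in doubly against singly crushed cord, and 2702 to 6049 in the CNTF by serum test (3600). The highest values for CNTF, IGF-1 and 1% FBS were without SPONT replicate 2. Replacing TMM by DESeq2 size factors moved the log2FC of the members tested by a median of at most 0.0943 in any comparison. The causes were not tested. Lin28a had at most 32 counts in any library outside ESC, so differences of that gene among the other groups were not detectable at this depth.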
